A study of Mus musculus with 19 samples.

Results

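Embryo 2 gave 7 of the 19 blastomere-derived mouse embryonic stem cell (Bm-mESC) lines of the series, and its 4 group I lines (2.3, 2.4, 2.5 and 2.6) were set against its 3 group II lines (2.1, 2.2 and 2.7). Embryo 1 gave 5 other lines and embryo 3 gave 7. Every line started from 1 blastomere of an embryo at the 8-cell stage from a cross of B6CBAF1/J females and males. Embryos of such a cross differ in genotype from one another, while the lines of 1 embryo descend from 1 zygote. No engineered allele or treatment differed between the groups. The medium of all lines held serum replacement, LIF, the MEK inhibitor PD0325901 and the TGF-beta receptor inhibitor SB431542, and the cells grew on HFF-1, a line of human foreskin fibroblasts. Feeder cells were taken off by attachment to gelatin before RNA extraction. A line is thus the progeny of 1 cell and gave 1 poly-A RNA-seq library, so the spread within a group is the spread between sister lines, and no group differs from the other in an agent that was applied.

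The groups were chosen by the measured values of these same libraries. The study read them as clusters in a principal component analysis of the 500 most variable genes, after the embryo differences had been removed. It placed line 2.2 by its gene modules. In a rerun of that analysis, the first component held 34.31% of the variance. It stood at 0.26 in line 2.3, -0.99 in line 2.4, -5.36 in line 2.5 and -9.45 in line 2.6 of group I. In group II it stood at 7.61 in line 2.1, 3.88 in line 2.2 and 3.89 in line 2.7. On this component, line 2.3 was the group I line nearest to group II, and lines 2.2 and 2.7 were the nearest on the other side. Line 2.2 also had the lowest value of the 7 lines on the second component, at -14.2, against 8.69 in line 2.3. Because expression placed the lines, the contrast between the groups is given below as a description without a test. Only its departure from embryos 1 and 3 was tested, and that test too uses groups drawn from these values.

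Mouse embryonic stem cells can hold a naive state, carried by factors such as Klf4, Esrrb and Tbx3, or drift toward a primed state that prepares for differentiation. MEK inhibition and LIF favor the naive state. Glycolysis splits glucose to pyruvate in the cytoplasm, and the oxygen-sensitive factor HIF-1 raises its enzymes, the glucose transporters and the lactate exporters, together with genes for blood vessel growth, mitophagy and collagen modification. The Egln enzymes mark the HIF alpha subunit for degradation and belong to its targets, which closes a feedback loop. ATF4 is the transcription factor of the integrated stress response and raises genes for amino acid synthesis and import.

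Total counts ranged from 40591042 to 48740941 in the 4 group I lines and from 33846569 to 44096597 in the 3 group II lines, so that depth overlapped between the groups. All 7 lines carried the markers of embryonic stem cells. Pou5f1, the central pluripotency factor, stood between 761 and 866 CPM (counts scaled to the total of each library) in group I, against 727 to 861 CPM in group II, and Sox2, its partner, between 339 and 409 CPM and between 321 and 362 CPM. A gene was called apart when every group I line lay beyond every group II line and the fitted fold change exceeded 1.5. Shifts over a whole chromosome or a long stretch of one set 3 lines off from their sisters. In line 2.2 the median log2 level of chromosome 8 genes was 0.44 above the other lines, in line 2.1 it was 0.15 above, and in line 2.6 the median over chromosome 1 was 0.17 above. Several results are given with and without line 2.2, which had the largest of the 3 shifts. Fold changes of single genes include line 2.6.

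Of 20333 tested genes, 853 were apart and higher in group I (4.2%) and 836 were apart and lower (4.11%). With no requirement on the fold, 1785 genes did not overlap between the groups and were higher in group I (8.78%), and 1832 were lower (9.01%). The fit weighs the difference against the spread between lines, and by its thresholds (adjusted p under 0.05 in edgeR and a fold over 1.5) 33 genes were higher (0.162%) and 172 lower (0.846%). These counts rank sizes in a contrast that chose the groups, and nothing is read from them as a test. Of the 205, 198 were also apart. These counts turned on single lines. With line 2.2 left out 1 gene was higher and 7 were lower, and leaving out line 2.1, 2.3, 2.4, 2.5 or 2.6 in its place gave 1, 1, 1, 2 and 1 higher and 5, 13, 22, 6 and 33 lower. With line 2.7 left out they grew to 208 higher and 685 lower, and the genes apart to 1707 and 1841. Over the 172 lower genes the median log2 fold change was -1.25, and -1.18 without line 2.2, and over the 33 higher genes it was 1.54, and 1.41 without line 2.2. Both sets were chosen with line 2.2 included. The lower set held 168 protein coding genes, while the higher set held 17 protein coding genes and 14 processed pseudogenes.

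Genes of the HIF-1 program and of glycolysis led the genes that were lower in group I. Eno2, a neuron-enriched enolase of glycolysis (chromosome 6), had 5.23, 7.20, 4.98 and 3.52 CPM in lines 2.3, 2.4, 2.5 and 2.6, against 53.8, 80.3 and 15.4 CPM in lines 2.1, 2.2 and 2.7. The log2 fold change of group I over group II was -3.25 ± 0.47 (SE), and -2.74 without line 2.2. Every group I line lay below the lowest group II line, which was line 2.7. The same order held for Slc16a3, which exports lactate (chromosome 11), with 75.2, 99.1, 73.9 and 65.0 CPM in group I against 343, 254 and 199 CPM in group II and a log2 fold change of -1.76 ± 0.35. Pfkp, the platelet form of phosphofructokinase, had 242, 309, 304 and 271 CPM in group I, against 769, 1004 and 490 CPM in group II, a log2 fold change of -1.42 ± 0.30. Aldoc, an aldolase, had 10.5, 11.4, 9.65 and 14.0 CPM in group I, against 47.5, 36.5 and 18.9 CPM in group II, a log2 fold change of -1.59 ± 0.33. Line 2.7 was the lowest of the group II lines for each of these 4 genes.

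The glycolysis list as a whole went the same way. Of its 24 members, 23 had a log2 fold change below 0, 12 were apart and lower, 9 of them past the thresholds of the fit, against 4.11% and 0.846% of all tested genes, and 0 were apart and higher. The median over the list was -0.69, against 0.004 over all tested genes, and it was -0.75 without line 2.2. With no requirement on the fold, 20 of the 24 did not overlap (83.3%), against the 9.01% of all tested genes given above. The glucose transporter Slc2a1 had 489, 660, 479 and 413 CPM in group I, against 1008, 818 and 855 CPM in group II. Phosphoglycerate kinase Pgk1 had 447, 525, 468 and 497 CPM in group I, against 1269, 1049 and 843 CPM in group II. Lactate dehydrogenase Ldha had 696, 838, 730 and 811 CPM in group I, against 1853, 1417 and 1339 CPM in group II, a log2 fold change of -0.999 ± 0.24. The abundant enzymes Gapdh and Pkm differed less, with log2 fold changes of -0.17 and -0.42. Ldhb, the other lactate dehydrogenase subunit, was the 1 member above 0, at 0.25, with 76.5 to 127 CPM in group I and 83.4 to 99.0 CPM in group II, ranges that overlap. The summed level of the list was 14070 to 15800 CPM in group I and 19970 to 26450 CPM in group II.

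**Figure D1:**
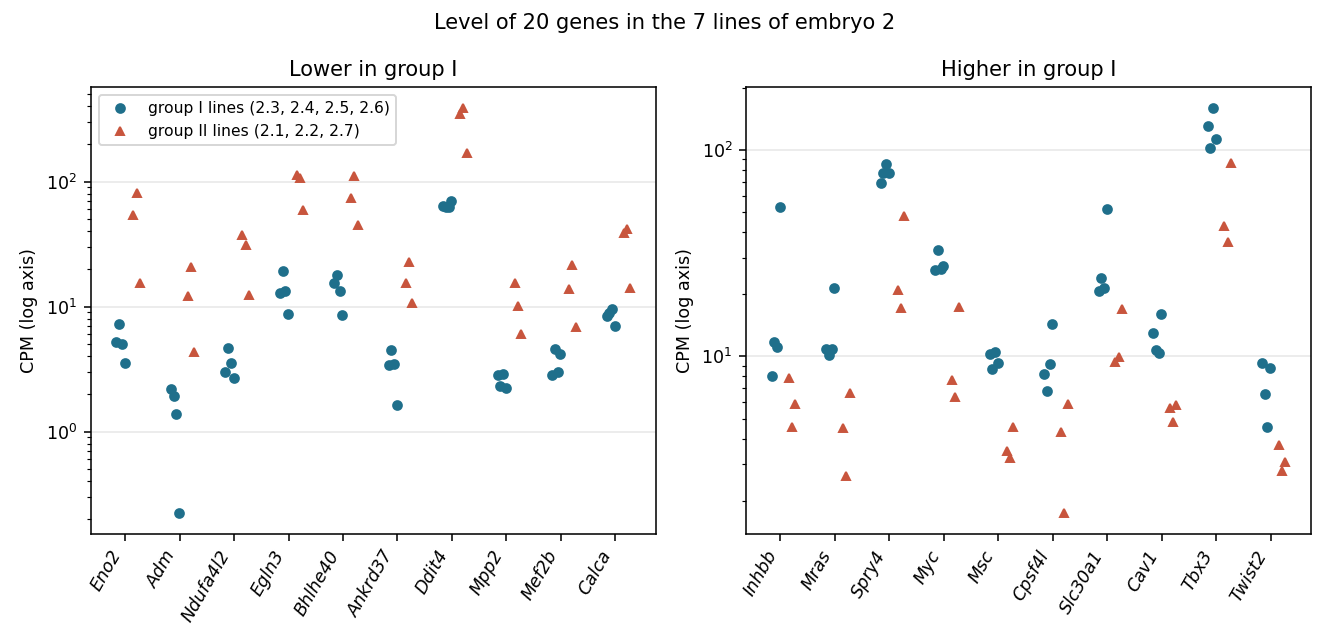
Levels of the 10 protein coding genes with the lowest and the 10 with the highest log2 fold change among those apart with a mean of at least 5 CPM, in CPM on a log axis. Circles are the 4 group I lines and triangles the 3 group II lines, each in the order given in the legend, and each gene shows 2 sets of points that do not overlap, with line 2.7 the group II line closest to group I for Eno2, Adm and Ddit4 and line 2.6 high for Inhbb.

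HIF-1 targets outside glycolysis had the median farthest from 0 of the 29 gene lists. Of 32 members, 29 had a log2 fold change below 0, 21 were apart and lower, 18 of them past the thresholds of the fit (all tested genes, 4.11% and 0.846%), and 1 (Lox) was apart and higher. The list median was -1.34, and -1.26 without line 2.2. Within the feedback arm, Egln3 had 12.9, 19.3, 13.3 and 8.70 CPM in group I, against 113, 106 and 59.0 CPM in group II, with a log2 fold change of -2.78 ± 0.49. Egln1, the main oxygen sensor, had 28.7, 37.0, 27.1 and 26.8 CPM in group I, against 90.8, 78.4 and 58.1 CPM in group II. Among secreted factors, the vasodilator peptide Adm stood at 2.19, 1.93, 1.39 and 0.222 CPM in group I, against 12.2, 20.5 and 4.36 CPM in group II, and Vegfa, the vascular growth factor, at 30.3, 35.7, 28.0 and 36.6 CPM against 125, 137 and 63.1 CPM. Line 2.6 was the lowest of the 7 lines for Egln3, Egln1 and Adm, while for Vegfa it was the highest of group I. Ndufa4l2, a mitochondrial protein that lowers complex I activity under hypoxia, had 2.97, 4.62, 3.52 and 2.66 CPM in group I, against 37.2, 31.1 and 12.3 CPM in group II. The mitophagy receptor Bnip3 had 54.8, 87.5, 59.2 and 58.8 CPM in group I, against 295, 269 and 156 CPM in group II. Ddit4, an inhibitor of mTORC1, stood within a narrow range of 62.3 to 69.8 CPM in the 4 group I lines and at 346, 390 and 169 CPM in the group II lines. The group II lines thus varied among themselves by more than 2-fold for Ddit4 while the group I lines did not. Bhlhe40, a transcriptional repressor of the clock, was lower in group I with a log2 fold change of -2.47 ± 0.40, and P4ha1 and Plod2, which hydroxylate collagen, with -1.57 ± 0.29 and -1.26 ± 0.24.

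Members that hardly moved marked the limit of this list. Kdm3a, a histone demethylase, had 199 to 248 CPM in group I and 180 to 224 CPM in group II, and Car12, a carbonic anhydrase, 1.58 to 3.30 CPM and 2.01 to 2.66 CPM, both with overlapping groups. The collagen crosslinker Lox ran the other way, with 7.42, 4.72, 5.59 and 10.4 CPM in group I against 4.39, 4.00 and 4.22 CPM in group II, a log2 fold change of 0.74. The same contrast within embryos 1 and 3 gave the HIF-1 list medians of -0.47 and -1.28, and the glycolysis list medians of -0.51 and -0.72. Fewer cells with a program and less of its RNA per cell cannot be told apart in bulk libraries.

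The proximal promoters of 4 of these genes are printed as examples of the 2 lists with and without the motif described next, chosen after their levels and sequences were seen. They run from 250 bases before the start of transcription to 50 bases after it, 5′ to 3′ on the coding strand, as RefSeq gives them on GRCm38.p6, an older build than the GRCm39 of the counts. Capitals mark ACGTG or its reverse complement CACGT, the core of the hypoxia response element that HIF binds.
Eno2 promoter, chr6:124769624-124769923, minus strand: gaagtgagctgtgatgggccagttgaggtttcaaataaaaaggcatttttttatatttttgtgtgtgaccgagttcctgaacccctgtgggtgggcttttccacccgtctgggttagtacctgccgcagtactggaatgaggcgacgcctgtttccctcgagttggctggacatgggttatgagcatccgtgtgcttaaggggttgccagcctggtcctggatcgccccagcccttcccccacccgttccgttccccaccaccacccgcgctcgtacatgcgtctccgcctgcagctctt
Adm promoter, chr7:110627407-110627706, plus strand: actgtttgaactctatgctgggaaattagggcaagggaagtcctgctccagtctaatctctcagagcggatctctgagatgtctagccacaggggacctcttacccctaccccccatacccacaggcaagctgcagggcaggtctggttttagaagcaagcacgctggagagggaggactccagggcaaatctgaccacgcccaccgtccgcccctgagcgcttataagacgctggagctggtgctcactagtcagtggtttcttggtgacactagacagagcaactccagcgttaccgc
Egln3 promoter, chr12:54203825-54204124, minus strand: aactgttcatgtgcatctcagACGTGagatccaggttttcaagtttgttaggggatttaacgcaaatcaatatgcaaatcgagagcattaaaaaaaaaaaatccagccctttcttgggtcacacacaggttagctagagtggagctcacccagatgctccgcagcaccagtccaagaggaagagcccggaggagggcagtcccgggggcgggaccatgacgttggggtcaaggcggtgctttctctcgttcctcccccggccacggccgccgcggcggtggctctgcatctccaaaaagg
Slc16a3 promoter, chr11:120948817-120949116, plus strand: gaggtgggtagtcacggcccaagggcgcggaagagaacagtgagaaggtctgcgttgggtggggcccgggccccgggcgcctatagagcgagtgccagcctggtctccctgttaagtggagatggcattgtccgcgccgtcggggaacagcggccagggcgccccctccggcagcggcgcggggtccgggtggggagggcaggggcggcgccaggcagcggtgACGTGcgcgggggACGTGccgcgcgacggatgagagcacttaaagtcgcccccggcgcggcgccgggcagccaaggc
Slc16a3 held 2 matches, at 27 and 14 bases before the start, and Egln3 held 1, at 229 bases before it. The windows of Eno2 and Adm held 0 matches to ACGTG, as did 2 windows of Vldlr and 1 of Stc2, which are not printed. This says nothing of sites elsewhere or of the form GCGTG, and the Adm window does hold CACGC. Across the reference table, 19.6% of 32851 promoters held the motif on either strand, and 24.1% of those of tested genes did. Promoters were found for 23 of the 24 glycolysis genes, of whose 36 promoters 47.2% held it, and for 25 of the 32 other HIF-1 targets, of whose 38 promoters 50.0% held it. Of the 180 promoters found for 135 of the 172 genes past the fit thresholds in the lower direction, 24.4% held it, close to the share over tested genes. A match is a string of letters and not a measured site.

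Genes of the ATF4 response were lower in group I as well, by smaller amounts. Of 30 members, 29 had a log2 fold change below 0, 12 were apart and lower, 5 of them past the fit thresholds (all tested genes, 4.11% and 0.846%), and 0 were apart and higher. The list median was -0.62, and -0.52 without line 2.2. Pycr1, an enzyme of proline synthesis, had 14.5, 15.9, 12.5 and 15.1 CPM in group I, against 45.8, 50.0 and 21.4 CPM in group II, with a log2 fold change of -1.43 ± 0.30. Stc2, a secreted glycoprotein that the HIF-1 list also holds, had 17.3, 18.8, 15.2 and 21.3 CPM in group I, against 61.2, 66.1 and 41.0 CPM in group II. Vldlr, a lipoprotein receptor, had 4.43, 6.28, 5.33 and 6.04 CPM in group I, against 24.1, 21.8 and 14.0 CPM in group II, a log2 fold change of -1.86 ± 0.37. For all 3 genes the 4 group I lines clustered within 2-fold, and line 2.7 was the lowest group II line. Of the serine enzymes, Phgdh and Shmt2 were apart, with log2 fold changes of -0.71 and -0.73, while Psat1 and Psph were not, with -0.58 and -0.80 and levels that overlapped through line 2.6. Phgdh, the first enzyme of serine synthesis, had 105 to 137 CPM in group I and 160 to 209 CPM in group II, and Shmt2, which passes on the one-carbon unit, 195 to 255 CPM and 289 to 405 CPM. Atf4 itself stood at 296, 305, 303 and 438 CPM in group I, against 438, 398 and 337 CPM in group II, so its groups overlapped through line 2.6. Line 2.6 was the highest group I line for Trib3, a pseudokinase target of ATF4, with 54.9 CPM against 24.7 to 28.0 CPM in its 3 group I sisters, and lay within the 44.1 to 67.6 CPM of group II. Cholesterol synthesis shifted less. Its 25 members had a median of -0.27, with 22 below 0, 1 apart and lower (Stard4, a sterol carrier) and 0 past the fit thresholds.

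**Figure D2:**
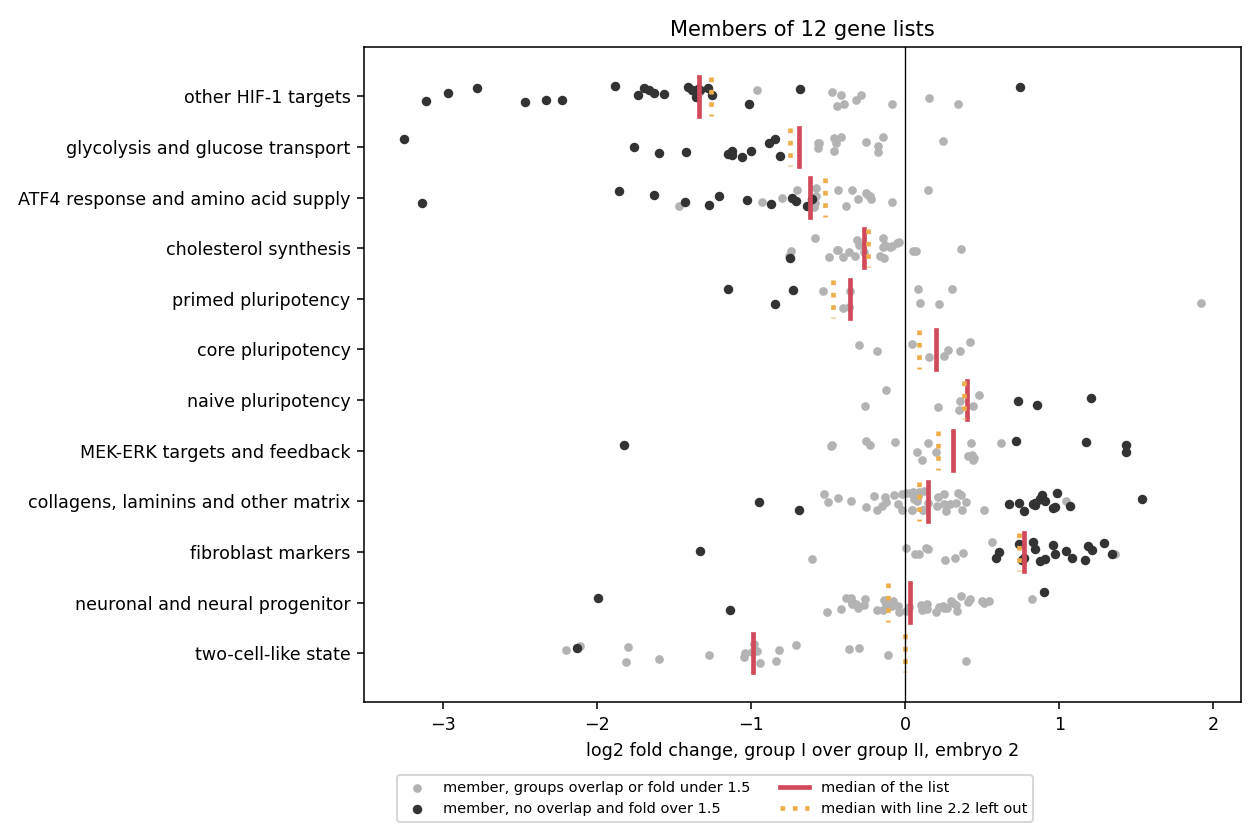
Log2 fold change of group I over group II in embryo 2 for each tested member of 12 gene lists. Dark points are members apart by more than 1.5-fold, gray points the rest, red bars list medians, and dotted bars the medians without line 2.2, which lie close to the red bars for the HIF-1 targets (-1.26 beside -1.34) and far from it for the two-cell-like state (0.00 beside -0.99).

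Pluripotency genes separated the groups by less than the metabolic genes. In the naive list, 8 of 10 members were higher in group I without overlap (80.0%, against the 8.78% of all tested genes given above), 3 of them by more than 1.5-fold, and 0 were past the fit thresholds. Tbx3, a T-box factor of the naive state, had 130, 102, 160 and 113 CPM in group I, against 42.8, 35.9 and 86.3 CPM in group II, and a log2 fold change of 1.20 ± 0.37. Tfcp2l1, another naive factor, had 207, 197, 252 and 247 CPM in group I, against 110, 96.8 and 167 CPM in group II. Nr0b1, a nuclear receptor that partners with Esrrb and Pou5f1, had 102, 88.7, 106 and 80.4 CPM in group I, against 57.9, 45.9 and 66.6 CPM in group II. Line 2.7 was again the group II line nearest to group I for all 3 genes. Klf2 and Dppa3 were the exceptions of the list, with log2 fold changes of -0.26 and -0.13. Klf2, which lies on chromosome 8, overlapped between the groups, and its log2 fold change was -0.15 without line 2.2. Dppa3 had 72.3, 68.4, 77.3 and 79.5 CPM in group I, against 80.0, 83.3 and 80.1 CPM in group II, and was lower without overlap by a small margin. The 8 core factors had a median of 0.20 with 0 apart (all tested genes, 4.2% higher and 4.11% lower). With no requirement on the fold, 3 of the 8 were higher in group I without overlap (37.5%, against 8.78% of all tested genes). Pou5f1 itself had a log2 fold change of 0.04 ± 0.13.

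The primed list was mixed in sign, with 7 of 12 members below 0 and 5 above. With no requirement on the fold, 5 were lower in group I without overlap (41.7%, against 9.01% of all tested genes) and 0 were higher. Among the 5 above 0, T and Foxa2 were near the floor, with means of 0.20 and 0.29 CPM over the 7 lines. Apart and lower were 3 (all tested genes, 4.11%), and 0 were apart and higher. Lef1, a Wnt effector, had 39.5, 59.7, 46.7 and 24.9 CPM in group I, against 104, 74.9 and 105 CPM in group II. Zic2 had 64.4, 75.1, 56.9 and 36.4 CPM in group I, against 93.2, 117 and 78.4 CPM in group II, and Eomes, a mesendoderm factor, 2.61, 3.96, 3.17 and 1.68 CPM against 6.43, 4.42 and 4.53 CPM. For these 3 genes line 2.6 was the lowest of the 7 lines. Fgf5, the classical marker of the primed epiblast, was among the 5 above 0: it had 2.01, 2.48, 1.97 and 1.50 CPM in group I, against 2.55, 0.926 and 1.65 CPM in group II. Its log2 fold change was 0.22 ± 0.45, and -0.09 without line 2.2. Otx2 had 47.3 to 61.0 CPM in group I and 67.8 to 93.3 CPM in group II, without overlap but with a fold under 1.5. The list median was -0.36, and -0.47 without line 2.2.

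Feedback genes of the MEK-ERK pathway were partly higher in group I, with 4 of 20 apart and higher and 1 apart and lower, against 4.2% and 4.11% of all tested genes. Spry4, which dampens receptor tyrosine kinase signaling, had 69.4, 77.0, 85.4 and 77.1 CPM in group I, against 21.1, 17.1 and 47.8 CPM in group II, and a log2 fold change of 1.43 ± 0.33. Myc, a growth regulator that LIF also induces, had 26.2, 32.8, 26.5 and 27.3 CPM in group I, against 7.66, 6.36 and 17.4 CPM in group II, a log2 fold change of 1.43 ± 0.38. The ETS factors Etv4 and Etv1 had log2 fold changes of 1.17 ± 0.40 and 0.72 ± 0.16. Ier3, an immediate early gene, was the member that was lower, with 6.75, 7.74, 7.27 and 4.83 CPM in group I against 22.8, 30.9 and 16.8 CPM in group II. The list median was 0.31. Of 18 LIF and STAT3 targets, 9 were higher in group I without overlap (50.0%, against 8.78% of all tested genes). Of those, 3 were higher by more than 1.5-fold (Tfcp2l1, Myc and Pramel7, beside 4.2% of all tested genes), and the list median was 0.32. Of 56 TGF-beta and BMP genes, 8 were apart and higher and 2 apart and lower, beside the same 4.2% and 4.11%, and the list median was 0.07. Inhbb, the beta B subunit of activin and inhibin, had a log2 fold change of 1.79 ± 0.70, the largest among protein coding genes apart with a mean of at least 5 CPM. Its value rested on line 2.6, at 53.1 CPM, against 8.00, 11.8 and 11.1 CPM in its 3 group I sisters and 7.83, 4.54 and 5.89 CPM in group II.

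Markers of fibroblasts, the cell type of the feeder layer, were higher in group I. Of 30 markers, 28 had a log2 fold change above 0, 18 were apart and higher (all tested genes, 4.2%), and 1 (Loxl2, which the HIF-1 list also holds) was apart and lower. The list median was 0.77, and 0.74 without line 2.2. Col1a1, the main chain of type I collagen, had 503, 319, 281 and 363 CPM in group I, against 195, 177 and 216 CPM in group II. Lum, a small proteoglycan of connective tissue, had 1.94, 1.77, 1.60 and 2.39 CPM in group I, against 0.714, 0.717 and 0.837 CPM in group II, a log2 fold change of 1.34 ± 0.32. Fap, a surface protease of activated fibroblasts, had 3.18, 1.91, 1.84 and 3.16 CPM in group I, against 0.944, 1.04 and 1.10 CPM in group II. No defining marker was at 0 in any of the 7 lines, and several were low, such as Postn at 0.459 to 0.873 CPM in group I and 0.128 to 0.462 CPM in group II. The summed level of the 30 markers ran from 2393 to 3056 CPM in group I and from 2065 to 2184 CPM in group II. Fn1, the most abundant of them, contributed 1138 to 1298 CPM in group I and 1167 to 1255 CPM in group II and did not separate the groups. Matrix genes, of which 15 of 57 were apart and higher and 2 apart and lower, had a median of 0.15, and 7 collagens and Thbs1 of those 15 are also fibroblast markers.

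Processed pseudogenes, which are copies of mRNAs without introns, were mostly higher in group I, as the fibroblast markers were. Of 2091 tested, 410 were apart and higher in group I (19.6%) and 19 apart and lower (0.909%), and their median log2 fold change was 0.46, against -0.02 for 15592 protein coding genes. Relative to the mean over the 7 lines, their median log2 level was 0.11, 0.00, -0.01 and 0.34 in lines 2.3, 2.4, 2.5 and 2.6 and -0.37, -0.29 and -0.23 in lines 2.1, 2.2 and 2.7. Line 2.6 was the highest and all 3 group II lines were the lowest. The fibroblast list was instead highest in line 2.3, with a mean log2 level of 4.30 against 4.18 in line 2.6. Most were scarce: of the 410, 294 had a mean under 1 CPM. Reads of near-identical copies can be split between a pseudogene and its parent, so these single values are uncertain. Rpsa-ps4, a copy of a ribosomal protein gene, had 2.49, 1.77, 2.09 and 2.74 CPM in group I, against 0.434, 1.02 and 0.953 CPM in group II. The share of all counts on processed pseudogenes overlapped between the groups, at 0.724% to 0.805% in group I and 0.695% to 0.731% in group II. Feeder RNA is human and the reads were aligned to the mouse genome, and the part of either gene class in the contrast was not tested.

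**Figure D3:**
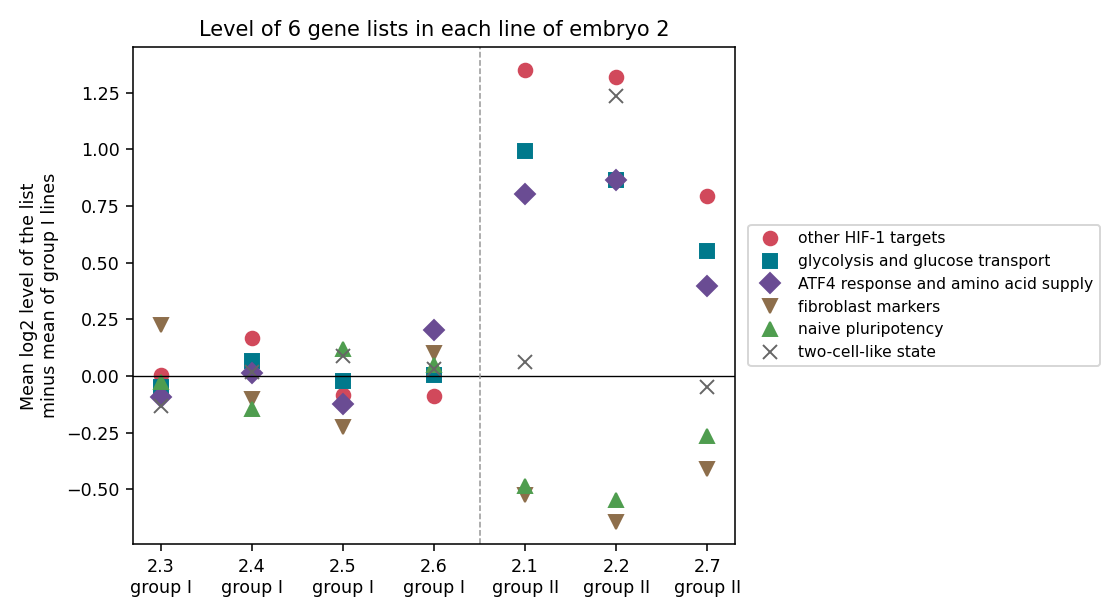
Mean log2 level of 6 gene lists in each line of embryo 2, as the difference from the mean of the 4 group I lines. Group I lines stand left of the dashed line and group II lines right of it; HIF-1 targets, glycolysis and ATF4 lists are higher in lines 2.1 and 2.2 than in line 2.7, and the two-cell-like list is high in line 2.2.

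The 3 group II lines were not alike. Over the 172 lower genes, line 2.1 stood 1.23 and line 2.2 1.25 above the group I mean at the median (log2), and line 2.7 stood 0.55 above it. Over 13944 genes at 1 CPM or more, line 2.7 was nearer to 3 lines of group I than to its own group: the median absolute log2 difference was 0.13 to line 2.3, 0.12 to line 2.4 and 0.13 to line 2.5, against 0.20 to line 2.1 and 0.22 to line 2.2. Lines 2.1 and 2.2 differed from each other by 0.20. Line 2.6 was in turn the outer line of group I, at 0.18 to 0.21 from its 3 sisters, which differed among themselves by 0.11 to 0.12. The mean log2 level of the HIF-1 list was 4.12, 4.28, 4.03 and 4.03 in lines 2.3, 2.4, 2.5 and 2.6 and 5.47, 5.44 and 4.91 in lines 2.1, 2.2 and 2.7.

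Line 2.2 stood off from its group in features that include the 2 given here. Genes of the two-cell-like state, a rare state resembling the cleavage embryo, were highest in that line. Zscan4f, a telomere regulator of this state, had 3.55, 3.61, 5.53 and 4.71 CPM in group I, against 4.21, 16.7 and 4.04 CPM in lines 2.1, 2.2 and 2.7. The list median was -0.99 over 20 members and 0.00 without line 2.2. Zscan4 genes are near-identical copies whose reads can be split among them. Line 2.2 also read high along the whole of chromosome 8: 86.3% of its 721 genes at 1 CPM or more lay above the sister lines, and the median shift stayed between 0.36 and 0.51 in every 20 Mb bin.

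Of the 1016 tested genes of chromosome 8, 84 were apart and lower and 30 apart and higher (all tested genes, 4.11% and 4.2%), 29 were past the fit thresholds in the lower direction and 1 in the higher (all tested genes, 0.846% and 0.162%), and the median log2 fold change was -0.24, and -0.11 without line 2.2. Hmox1, which degrades heme under oxidative stress, had 91.4, 105, 106 and 114 CPM in group I, against 186, 442 and 155 CPM in lines 2.1, 2.2 and 2.7. Its log2 fold change was -1.33 ± 0.28 and moved to -0.72 without line 2.2. Ifi30, a lysosomal thiol reductase, had 23.3 to 27.5 CPM in group I, against 44.5, 100 and 27.8 CPM in group II, with log2 fold changes of -1.18 ± 0.29, and -0.52 without line 2.2. Ankrd37, a HIF-1 target, depended less on that line, at -2.33 and -2.02. Line 2.1 was raised over the distal part of the same chromosome, by 0.21 to 0.26 in the bins from 80 Mb on and by 0.02 to 0.08 in those below 60 Mb. On chromosome 1, line 2.6 shifted by -0.05 to -0.02 in the bins up to 100 Mb and by 0.37 to 0.495 in those beyond. Of the 1225 tested genes of chromosome 1, 74 were apart and higher and 25 apart and lower (all tested genes, 4.2% and 4.11%). Slc30a1, a zinc exporter on chromosome 1, had 20.7, 24.1, 21.4 and 51.5 CPM in lines 2.3, 2.4, 2.5 and 2.6, against 9.42, 9.93 and 16.9 CPM in group II. The part of these shifts in the group contrast was not tested beyond these values. Without the genes of chromosomes 1 and 8, 749 genes remained apart and higher and 727 apart and lower.

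**Figure D4:**
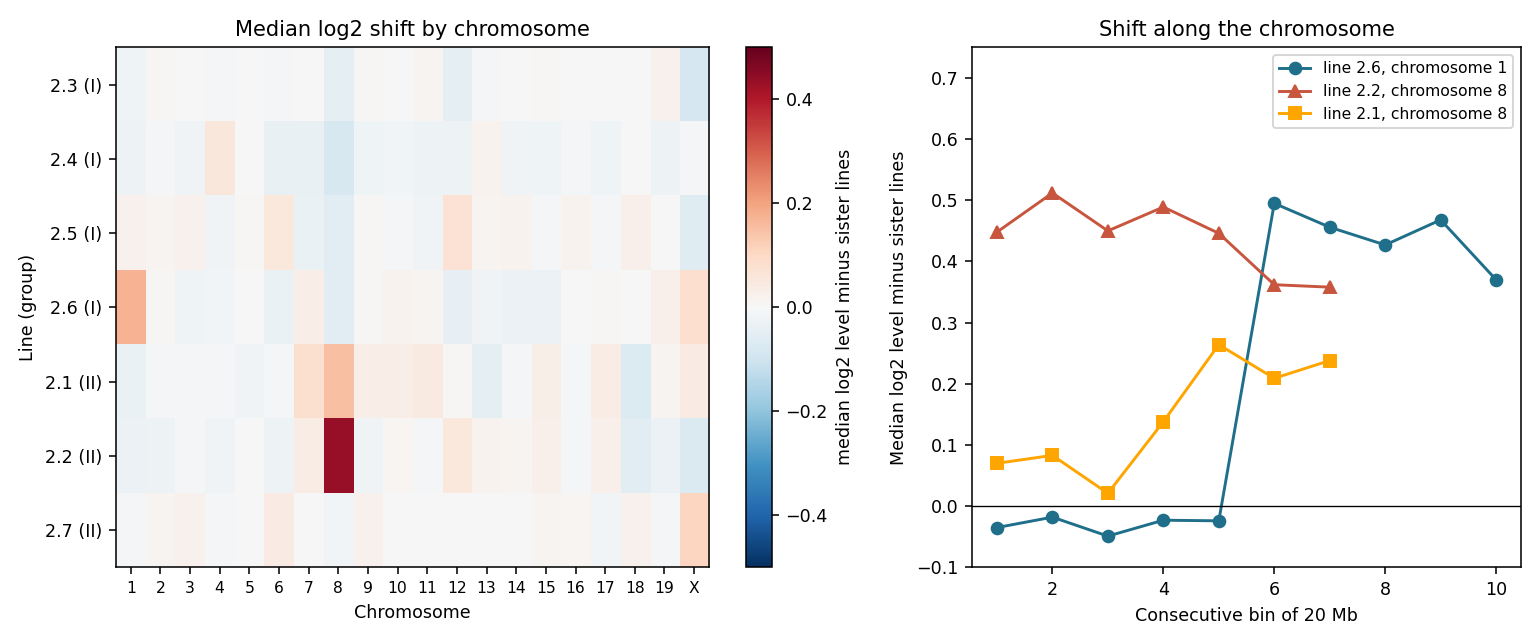
Left, the median log2 level of the genes of each chromosome in each line minus its sister lines, with group I lines above group II lines. Right, the same along chromosome 1 in line 2.6 and chromosome 8 in lines 2.2 and 2.1, in consecutive bins of 20 Mb: line 2.2 stays between 0.36 and 0.51 throughout, and line 2.6 steps to 0.495 at the sixth bin.

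Whether embryo 2 differed from the other embryos in its group contrast was tested by the interaction, embryo 2 minus the mean of embryos 1 and 3. With edgeR's quasi-likelihood test and Benjamini-Hochberg adjustment, 41 genes had a higher group difference in embryo 2 (0.202%) and 5 a lower one (0.0246%). The lines are the replicates, and the p-values measure the spread between sister lines of 3 embryos. The test asks about the difference between embryos and not about the groups. The groups of all 3 embryos were drawn from these same values, which can narrow the spread within a group. On the first component of the rerun, the nearest lines of the 2 groups stood at 0.26 and 3.88 in embryo 2. They stood at -4.12 and 4.55 in embryo 1 and at -3.58 and 7.16 in embryo 3. The groups of embryo 2 were thus the least separated there, and the test cannot set a flatter contrast apart from the grouping. The test is therefore not independent of the grouping, and its adjusted p-values serve to rank genes. Among the 41 genes the contrast was nearly flat in embryo 2, with a median log2 fold change of 0.27 and 35 genes within 1.5-fold, while the medians in embryos 1 and 3 were -2.08 and -1.66. In 40 of the 41 the log2 fold change was below 0 in both other embryos. With line 2.2 left out 0 genes were called in either direction by edgeR, against 91 and 9 by DESeq2, and 2005 genes had an unadjusted p under 0.05 in edgeR with all lines. The count of 41 became 6 without line 2.1, 3 without line 2.3, 25 without line 2.5 and 79 without line 2.6. It became 79, 81 and 27 without lines 1.2, 1.3 and 1.4, and 24, 19, 66, 26 and 26 without lines 3.2, 3.3, 3.4, 3.5 and 3.7. The 5 lower genes became 14 without line 2.7 and between 0 and 8 without another line.

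Dtx4, an E3 ligase of the Notch pathway, showed the pattern. It had 21.7, 11.3, 11.4 and 11.7 CPM in group I of embryo 2, against 13.8, 8.52 and 12.5 CPM in group II, and the groups overlapped. In embryo 1 it had 1.92, 2.77 and 1.86 CPM in group I, against 15.3 and 11.5 CPM in group II, and in embryo 3 it had 3.22, 1.75, 2.38 and 1.49 CPM in group I, against 6.46, 10.6 and 14.9 CPM in group II. Of the 7 lines of embryo 2, 6 were thus in the range of the group II lines of the other embryos and line 2.3 was above it. The difference of log2 fold changes was 2.71 ± 0.40 (SE, adjusted p = 0.0144 in edgeR). It was 2.53 without line 2.2. Ceruloplasmin (Cp), a copper-carrying oxidase, had 2.05, 0.472, 1.25 and 1.18 CPM in group I of embryo 2 and 1.40, 0.787 and 0.924 CPM in group II, but at most 0.029 CPM in group I of embryo 1, against 0.738 and 0.847 CPM in its group II. Its difference was 5.16 ± 0.77 (adjusted p = 0.0144 in edgeR). Utrn, the dystrophin homolog, had 158, 160, 176 and 172 CPM in group I of embryo 2 and 138, 155 and 163 CPM in group II, with log2 fold changes of -0.60 and -0.61 in embryos 1 and 3 and a difference of 0.73 ± 0.11 (adjusted p = 0.0144 in edgeR).

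Of the neuronal and neural progenitor list of 45, 3 were called in the higher direction (Pax6, Pou3f2 and Robo2), against 0.202% of all tested genes, and its median log2 fold change was 0.03 in embryo 2, -1.03 in embryo 1 and -0.64 in embryo 3. Pax6, a factor of eye and forebrain, had 23.6, 18.7, 20.1 and 27.6 CPM in group I of embryo 2, against 13.8, 9.21 and 13.3 CPM in group II, and a difference of 1.99 ± 0.40 (adjusted p = 0.0414 in edgeR). Pou3f2, a POU factor of neurons, had 5.79, 3.02, 3.01 and 3.57 CPM in group I of embryo 2 and 4.31, 2.13 and 2.97 CPM in group II, and 0.244 to 0.433 CPM in group I of embryo 3, against 2.16 to 3.93 CPM in its group II. Ccnd2, a cyclin of the G1 phase, had 47.6, 22.4, 26.6 and 17.7 CPM in group I of embryo 2 and 28.5, 13.6 and 27.3 CPM in group II, and 1.78 to 3.29 CPM in group I of embryo 3, against 13.0 to 27.7 CPM in its group II. Cdh2 (N-cadherin), the neural adhesion molecule, had a difference of 2.20 ± 0.39 (adjusted p = 0.0234 in edgeR). Plat, a plasminogen activator, and Plxna2, a semaphorin receptor, had differences of 1.83 ± 0.29 and 1.59 ± 0.25 (adjusted p = 0.0167 for both in edgeR).

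**Figure D5:**
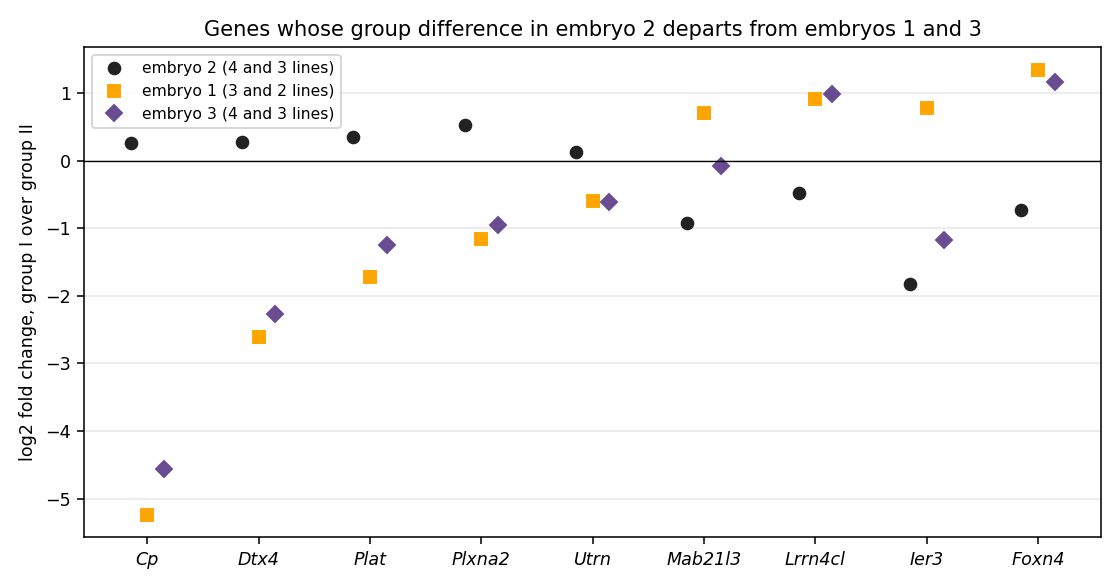
Log2 fold change of group I over group II within each embryo for the 9 protein coding genes with the smallest p in the test of embryo 2 against embryos 1 and 3. Circles are embryo 2, squares embryo 1 and diamonds embryo 3; for Cp and Dtx4 embryo 2 lies at 0.26 and 0.27 while the other 2 embryos lie at -5.24 and -4.57, and at -2.62 and -2.27.

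The 5 genes with a lower group difference in embryo 2 were Ier3, Foxn4, Lrrn4cl, Mab21l3 and the pseudogene Gm36718, which stayed under 0.3 CPM in all lines. Ier3 had log2 fold changes of -1.82 in embryo 2, 0.77 in embryo 1 and -1.18 in embryo 3, and a difference of -1.62 ± 0.32 (adjusted p = 0.0378 in edgeR). Its embryo 1 lines stood at 36.0, 33.4 and 41.1 CPM in group I, against 14.5 and 28.6 CPM in group II, above most lines of embryo 2. Foxn4, a forkhead factor of retinal and spinal progenitors, had 3.67, 2.76, 3.87 and 3.85 CPM in group I of embryo 2 and 8.06, 5.74 and 3.75 CPM in group II, with log2 fold changes of 1.34 and 1.16 in embryos 1 and 3 and a difference of -1.98 ± 0.40 (adjusted p = 0.0414 in edgeR). Lrrn4cl and Mab21l3 had differences of -1.43 ± 0.28 and -1.24 ± 0.25 (adjusted p = 0.0369 and 0.0414 in edgeR). Of the HIF-1, glycolysis, ATF4 and naive lists 0 genes were called, and with shares of 0.202% and 0.0246% over all genes nothing is read from that count. The median differences of the 4 lists were -0.25, -0.06, -0.30 and -0.06. Eno2 came closest of the leading genes, with log2 fold changes of -3.25 in embryo 2, -0.63 in embryo 1 and -0.67 in embryo 3 and an adjusted p of 0.0788 in edgeR.

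Of the other lists, several had medians near that of all tested genes. Nuclear genes of oxidative phosphorylation had a median of 0.01 with 0 of 41 apart, cell cycle genes 0.02 with 0 of 32 apart, ribosomal proteins -0.06 with 0 of 56 apart, and imprinted genes -0.01 with 0 of 31 apart. The share of counts on mitochondrial genes was 3.33%, 3.00%, 3.36% and 2.53% in lines 2.3, 2.4, 2.5 and 2.6 and 2.29%, 3.79% and 3.06% in lines 2.1, 2.2 and 2.7, so that the 2 extremes both lay in group II. Of 24 p53 targets, 1 was apart and lower, the cell cycle inhibitor Cdkn1a, with 106, 86.5, 91.5 and 92.6 CPM in group I against 161, 182 and 109 CPM in group II. Other lists had medians above that of all genes with few members apart (all tested genes, 4.2% higher and 4.11% lower). Trophectoderm genes had a median of 0.42 with 1 of 18 apart in each direction, and primitive endoderm genes 0.32 with 2 of 20 apart and higher (Lama1 and Fst). Germline genes kept silent by DNA methylation had 0.34 with 1 of 20 apart and higher, naive markers outside the list above 0.31 with 2 of 19 apart and higher (Nr5a2 and Pramel7), and X-inactivation and Y-linked genes 0.47 with 1 of 9 apart and higher. Tsix, the antisense partner of Xist, had 28.9, 30.5, 25.8 and 28.3 CPM in group I, against 14.0, 20.0 and 20.8 CPM in group II, while Xist overlapped at 5.12 to 9.74 CPM in group I and 3.93 to 6.41 CPM in group II. The libraries kept strand, but RSEM was run at its defaults, which do not use it, so reads of the pair cannot be told apart.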

How the data were processed

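RNA-seq was used for 19 Bm-mESC lines, 1 stranded poly-A library each. The authors aligned reads with STAR to GRCm39 and counted them with RSEM 1.3.0, and deposited the expected counts as whole numbers for 55416 genes, of which 19924 were at 0 in all lines. Groups I and II are not in the sample labels and were taken from the study. Counts were filtered with filterByExpr to 20333 genes, normalized with TMM factors and entered into a quasi-likelihood model in edgeR 4.0.16 (R 4.3.3, limma 3.58.1) with a level for each embryo and group, and p was adjusted by the Benjamini-Hochberg method over all tested genes. CPM values use TMM-scaled totals. Total counts of 33846569 to 48740941 set the precision, and intervals between lines cover more than counting error. The PCA used ComBat-seq of sva 3.50.0 and rlog of DESeq2 1.42.0. The chromosome shift of a line is the median over genes of its log2 level (pseudocount of 0.5 CPM) minus the median of the other lines. Gene coordinates came from a later GENCODE release of the same assembly.

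The members and the 29 gene lists were chosen with earlier results of these data known. Named genes are the 10 largest and 10 smallest log2 fold changes among protein coding genes apart with a mean of at least 5 CPM, up to 4 members apart per list, the core, naive and primed genes of the study, up to 5 genes per direction of the interaction, 5 genes of chromosome 8 raised in line 2.2, and 3 genes per direction past the fit thresholds that vary most within group I. Other genes named were chosen after their values were seen. Alternatives were DESeq2, RLE factors, other filters, fold thresholds, gene types and lines left out. The fit was tested on simulated data. The columns of embryos 1 and 3 entered the shared fit and the interaction.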

Additional observations from a re-analysis of the deposited data

Results flagged for a closer look

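Of 153 sets of values screened (shares of counts, list levels and chromosome shifts over the 7 lines, and named genes over the 4 group I lines), 13 held a line far from the others, and chance flags about 1 in 20. Over the 7 lines these were the two-cell-like list in line 2.2 (mean log2 level of 1.27), the cell cycle list in line 2.6 (7.73), chromosome 1 in line 2.6 (median shift of 0.173), chromosome 4 in line 2.4 (0.056) and chromosome 5 in line 2.1 (-0.016, where all lines lay close together). Within group I, line 2.6 stood apart at 53.1 CPM for Inhbb, 51.5 CPM for Slc30a1, 21.5 CPM for Mras and 69.8 CPM for Ddit4, line 2.4 at 32.8 CPM for Myc and, as the lowest, 1.56 CPM for Lrrn4cl, line 2.5 at 316 CPM for Utf1 and line 2.3 at 21.7 CPM for Dtx4. Utf1 and Ddit4 lay within narrow ranges, so their single lines were not far off in absolute terms.

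The group difference of embryo 2 departed from the mean of embryos 1 and 3, by the interaction test of edgeR, upward for Cp (5.16 on the log2 scale), Dtx4 (2.71), Plat (1.83), Plxna2 (1.59) and Utrn (0.73), and downward for Foxn4 (-1.98), Ier3 (-1.62), Lrrn4cl (-1.43) and Mab21l3 (-1.24). The fifth gene called in the lower direction was a pseudogene. These calls serve to rank genes, because the groups were drawn from the same values.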

How the results depend on the processing

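Without single lines, the genes past the fit thresholds ranged over 1 to 208 higher and 5 to 685 lower, the genes apart over 995 to 1707 higher and 922 to 1841 lower, and the interaction over 0 to 81 higher and 0 to 14 lower. DESeq2 gave 236 higher and 451 lower past the thresholds and 203 and 35 for the interaction. With DESeq2 and line 2.2 left out, chosen after seeing the data, these were 24, 100, 91 and 9. Without the filter on low counts they were 114, 365, 161 and 24. Genes apart numbered 366 higher and 511 lower at a minimum of 1 CPM in 3 lines, 1785 and 1832 with no fold threshold, and 495 and 377 at a fold over 2. Among protein coding genes alone, 336 were apart and higher and 21 past the thresholds and higher. The chromosome 8 shift of line 2.2 was 0.352 against the group II sisters alone. The causes of these moves were not tested beyond fewer genes or lines by construction. Of 232 list medians under alternatives, 222 moved by less than the spread between lines, and of 891 log2 fold changes of named genes 857 moved by less than their SE. Without line 2.2 all 9 named interaction genes lost their call.

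No paired analysis was possible because the 4 group I lines and the 3 group II lines of embryo 2 share no line number. Each group is 3 or 4 sister lines of 1 embryo, so nothing here separates the embryo from its lines, and low genes are limited by depth.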

Other observations

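Further genes with large differences in the contrast are given here, of which Sncb is also in the neuronal list. Calca, the gene for calcitonin and its related peptide, had 8.39, 8.94, 9.54 and 7.00 CPM in group I, against 38.6, 41.7 and 14.2 CPM in group II. Mpp2, a scaffold of synapses, had 2.81, 2.34, 2.91 and 2.24 CPM in group I, against 15.5, 10.1 and 6.09 CPM in group II, and the synuclein Sncb 1.50, 1.25, 0.983 and 1.50 CPM against 7.96, 5.28 and 2.40 CPM. Aire, the autoimmune regulator, was lower in group I at 20.1, 37.2, 23.6 and 10.8 CPM, against 94.6, 77.5 and 50.0 CPM in group II. On the higher side, Msc, a bHLH repressor, had 10.3, 8.68, 10.5 and 9.24 CPM in group I, against 3.47, 3.22 and 4.53 CPM in group II, and Cdk6, a G1 kinase, 21.4, 15.2, 17.8 and 15.6 CPM against 7.96, 5.07 and 11.1 CPM. Glul, glutamine synthetase, had 129, 105, 138 and 182 CPM in group I, against 80.1, 72.8 and 100 CPM in group II. Line 2.7 was the group II line nearest to group I for each of these 7 genes.

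Of 25 heat shock and unfolded protein response genes 2 were apart, both lower (all tested genes, 4.2% higher and 4.11% lower). Dnajb1, a heat shock cochaperone, had 50.1 to 53.7 CPM in group I and 60.4 to 94.6 CPM in group II. Its log2 fold change was -0.61 ± 0.15, and -0.46 without line 2.2, a fold under 1.5. Dnajb1 lies in the part of chromosome 8 that was raised in lines 2.2 and 2.1. Hspa1a had 3.27 to 4.14 CPM in group I and 4.16 to 12.9 CPM in group II, with a log2 fold change of -1.04 that was -0.41 without line 2.2. Of 26 interferon and MHC class I genes 1 was apart and higher and 2 were apart and lower (Tap2 and H2-K1), beside the same 4.2% and 4.11%. H2-K1 averaged 28.4 ± 5.93 CPM in group I, against 43.2 ± 2.20 CPM in group II (SD, n = 4 and 3), a log2 fold change of -0.61 ± 0.19. H2-T23 ran the other way at a low level, with 1.45, 0.944, 0.655 and 1.55 CPM in group I, against 0.561, 0.486 and 0.520 CPM in group II, a log2 fold change of 1.13 ± 0.45. The basement membrane chain Lama1 and the matrix protein Tnc had higher levels in group I than in group II, at log2 fold changes of 0.98 ± 0.25 and 1.07 ± 0.32.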
